A study of Mus musculus with 12 samples.

Results

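The genes described here encode 37 lysosomal proteins: the enzymes that break down protein, glycans and lipids inside lysosomes, proteins of the lysosomal membrane, progranulin, and the transcription factors Tfeb and Tfe3. They were listed by name, and each was matched through its Ensembl gene identifier in the GRCm38 annotation to 1 row of both raw count tables. All 37 were found among the 55487 genes of each table, and all 37 passed the filter on low counts in both experiments. They fall into 7 classes, with 11 proteases, 9 glycosidases, 3 sulfatases, 5 lipid enzymes and activators, 6 membrane proteins, progranulin alone, and 2 transcription factors. Raw counts of single members ranged from 214 (Sgsh in an MSC+RAW-LPS-TW library) to 190479 (Ctsd in an MSC+RAW-TW library).

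Bulk RNA-seq was done in a pair of experiments, both on C57BL/6 cells from the limbs of mice labelled as 8 weeks old. In the first, bone marrow-derived macrophages (BMMs), grown from marrow with M-CSF, came from ovariectomized (OVX) mice, which lack ovarian estrogen and serve as a model of postmenopausal bone loss, or from sham-operated mice, with 3 libraries each. In the second, mesenchymal stem cells (MSCs), the stromal precursors of bone-forming cells, were kept alone as the control (MSC), co-cultured with RAW264.7 cells (MSC+RAW-TW) or co-cultured with LPS-stimulated RAW264.7 cells (MSC+RAW-LPS-TW), with 2 libraries each. RAW264.7 is a mouse macrophage line, LPS is a bacterial endotoxin that activates macrophages, and TW stands for the transwell membrane that, in the study's co-cultures, kept the cells apart. The labels do not say whether libraries of a group came from separate animals or cultures, so p-values measure the spread between these libraries, which may be technical.

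Library totals ran from 17012923 to 45367105 counts. Sham replicates 2 and 3 were near-identical, and so were both MSC+RAW-TW libraries. Over genes with high counts, their chi-square per gene (1 for sampling noise alone) was 3.09 and 3.34, against 30.5 to 269 for other replicate pairs. In every library 60.0% to 71.4% of low counts were even numbers, so that sampling noise itself lies above 1. Each of these near-identical pairs was summed and counted as 1 sample, which leaves n = 3 OVX, 2 sham, 2 MSC, 2 MSC+RAW-LPS-TW and 1 MSC+RAW-TW. Comparisons with MSC+RAW-TW have no replicate on that side and no test. The libraries labelled MSC held all 12 macrophage markers, at a summed level of 27674 to 27862 CPM (counts scaled to library size with TMM factors), against 2698 to 2849 CPM for 12 stromal markers. They thus held markers of both cell types, and the names MSC, MSC+RAW-TW and MSC+RAW-LPS-TW stand below for the libraries so labelled. Of the stromal markers, Col1a2 measured 879.7 and 927.0 CPM and Pdgfrb 160.7 and 157.4 CPM, whereas Thy1 (0.449 and 0.294 CPM) and Lum (0.286 and 0.5 CPM) were near 0. Macrophage markers ranged from Cx3cr1, at 12.7 and 12.3 CPM, to Lyz2, at 21597 and 21728 CPM. The BMM libraries held the macrophage markers at 44094 to 64453 CPM and the stromal markers at 7392 to 9199 CPM. In bulk samples, fewer cells of a type and less RNA per cell cannot be told apart.

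Lysosomes are the acidic compartments in which cells degrade material taken up from outside and their own worn components. Their enzymes are made in the endoplasmic reticulum, tagged with mannose 6-phosphate and sorted to lysosomes, where a proton pump, the V-ATPase, supplies the acid they need. Tfeb and Tfe3 are basic helix-loop-helix factors that enter the nucleus when nutrients are scarce or lysosomes are stressed and switch on many lysosomal genes together. Macrophages are rich in lysosomes, and Cd68 and Gpnmb are lysosomal membrane proteins used as macrophage markers.

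Per kilobase of exon, the aspartyl protease cathepsin D (Ctsd) had the highest level of the 37 genes in sham, OVX, MSC and MSC+RAW-TW. It averaged 2026 CPM per kilobase in sham, 1457 in OVX, 969.2 in MSC and 1977 in MSC+RAW-TW, and ranked between 22nd and 31st of all genes kept. In MSC+RAW-LPS-TW it averaged 347.9 CPM per kilobase, and the carboxypeptidase cathepsin Z (Ctsz) stood highest, at 732.2. The elastinolytic protease cathepsin S (Ctss) and Psap, the precursor of the saposins that present lipids to their enzymes, came next in sham, at 986.8 and 958.5 CPM per kilobase. At the low end, the protease Ctsf, the beta-mannosidase Manba and Tfeb measured 3.94, 3.50 and 4.25 CPM per kilobase in sham. Levels within the set thus spanned more than 2 orders of magnitude. In plain CPM, Ctsd was also highest in sham, OVX and MSC+RAW-TW. In MSC it averaged 2279 CPM, below the cysteine protease Ctsb at 3902 CPM and Psap at 2507 CPM. Exons of Ctsd share 808 bases with Gm49369 on the same strand, so some of its counts are uncertain.

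Some of the lysosomal genes hold a common run of letters in their promoters. Tfeb and Tfe3 bind an E-box, CACGTG, preferably with a flanking T, and the promoters of the genes were searched for TCACGTG on both strands, in which the reverse strand reads CACGTGA. RefSeq promoter windows of GRCm38.p6, from 250 bases before to 50 after the start site, were matched for 34 of the 37 genes. TCACGTG was in 11 of these 34 (32.4%), and in 4.29% of the 27025 gene symbols with such a window. The shorter CACGTG, which TCACGTG contains, was in 13 of the 34 (38.2%, against 8.09% of all), and the palindrome TCACGTGA in 4 (11.8%, against 1.12%). The 11 genes were Arsa, Ctsa, Ctsd, Gaa, Gla, Glb1, Lamp1, Lgmn, Mcoln1, Naglu and Sgsh. A stretch upstream of the start site is shown for 4 of them, as examples of 1 and of several matches, in lower case on the gene's strand with TCACGTG or CACGTGA in capitals. The Lamp1 stretch is chr8:13159087-13159160, plus strand, that of Gaa chr11:119267810-119267840, plus strand, that of Glb1 chr9:114401017-114401047, plus strand, and that of Arsa chr15:89477425-89477453, minus strand.
Lamp1: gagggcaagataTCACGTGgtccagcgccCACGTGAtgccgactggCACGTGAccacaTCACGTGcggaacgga
Gaa: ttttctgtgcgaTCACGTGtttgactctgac
Glb1: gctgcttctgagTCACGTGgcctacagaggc
Arsa: ttcaactcagtgTCACGTGttgtctgctc
Lamp1 held 4 matches within these 74 bases, and the other three genes 1 each. A match is a run of letters, and no binding was measured.

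The first comparison asked how lysosomal genes of macrophages differ after ovariectomy. By the test 4 of the 37 fell in OVX against sham BMMs and 0 rose, and how many of the others lay below 0 depended on sham replicate 1. The 4 were Ctsz, Tfe3, the sialidase Neu1 and the acid alpha-glucosidase Gaa, each at 1.70 to 1.97-fold lower levels in OVX. Fitted log2 fold changes of the 37 had a median of -0.34, against -0.01 over all 16768 genes tested, and 31 of the 37 were below 0 (83.8%), against 50.5% of all genes. Without sham replicate 1, 19 of the 37 (51.4%) were below 0, with a median of -0.19. The share that passed an adjusted p of 0.05 was 10.8% of the 37, against 13.9% of all genes in either direction. The background was 6.19% in the lower and 7.66% in the higher direction. In edgeR, 0 genes of the 37 passed in the higher direction, 0 had an unadjusted p under 0.05 there, and 0 passed with DESeq2. At a fold of at least 2 on top of the adjusted p, 0 of the 37 were called by edgeR or by DESeq2, and 0 by an unadjusted p of 0.05, against 8.70% of all genes by edgeR (3.12% lower and 5.57% higher). CPM ranges of the groups did not overlap for 15 of the 37, all lower in OVX, where the background was 23.2% in that direction and 47.3% in either.
The plot of fold changes by class shows the spread of these values beside that of the LPS comparison.

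**Figure D1:**
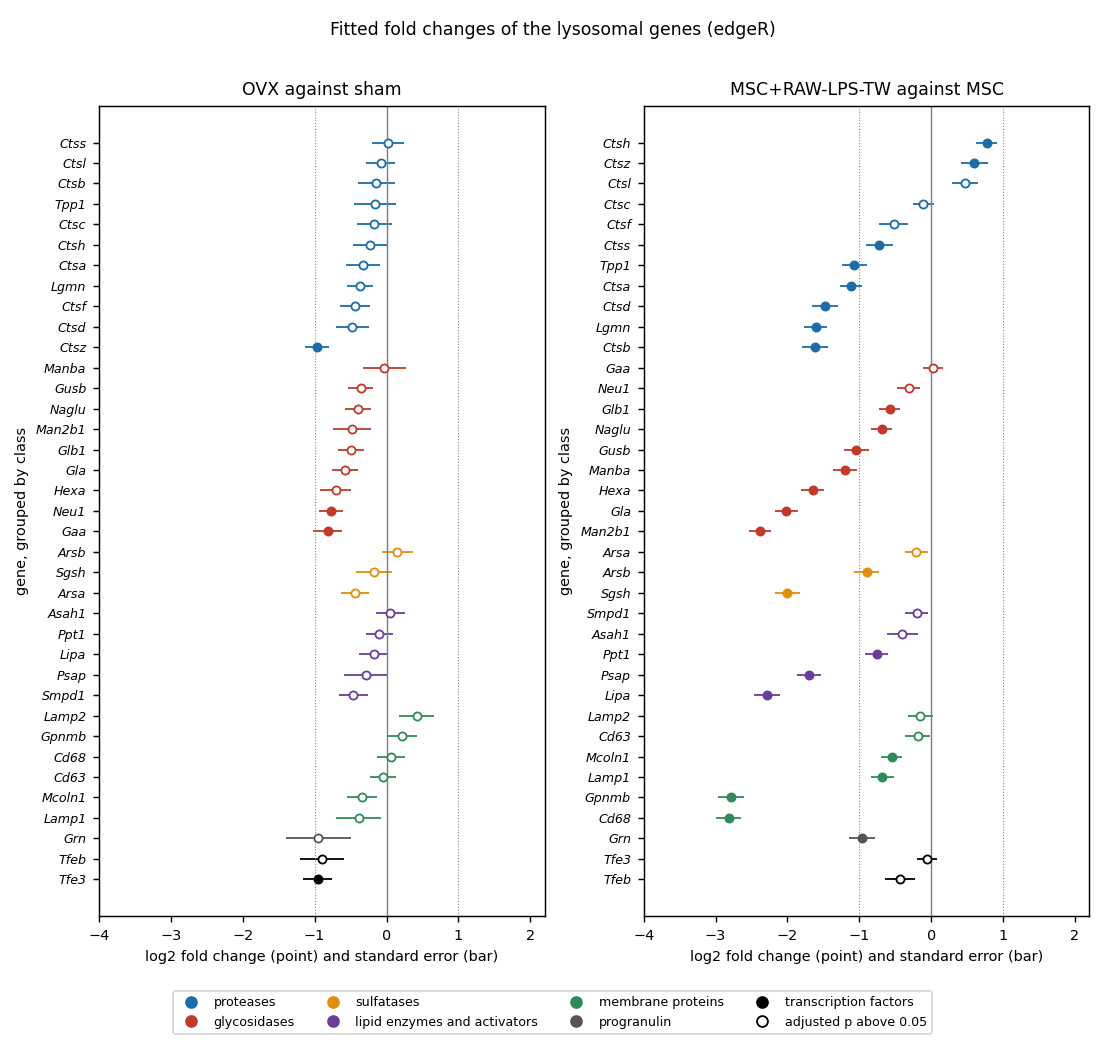
Fitted log2 fold changes of the 37 lysosomal genes (points) with standard errors (bars), OVX against sham on the left and MSC+RAW-LPS-TW against MSC on the right; filled points passed an adjusted p of 0.05 in edgeR and dotted lines mark 2-fold. On the left all points lie between -0.97 and 0.42, and on the right between -2.82 and 0.77.

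Among the 11 proteases, Ctsz (ENSMUSG00000016256, GRCm38 chromosome 2, 174427493 to 174439039, minus strand), a carboxypeptidase that trims single residues, fell. It measured 1023, 1067 and 1057 CPM in sham and 502.2, 573.6 and 521.5 CPM in OVX. Every OVX library was lower than every sham library, and the groups were far apart for their spread, with means of 532.4 ± 36.9 (SD, n = 3) and 1042 ± 27.8 CPM (SD, n = 2). The log2 fold change was -0.97 (SE 0.17, edgeR adjusted p = 0.00993), -0.55 (adjusted p = 0.0645) with GC and length trends removed, and the adjusted p was 0.0597 without OVX replicate 2. Of the 11 proteases, 10 lay below 0 and Ctss just above, and without sham replicate 1, 4 of the 11 lay below 0. Ctss measured 1430, 1247 and 1253 CPM in sham and 1616, 1445 and 1037 CPM in OVX. OVX libraries were on both sides of the sham libraries, and the log2 fold change was 0.02 (SE 0.22, adjusted p = 0.962). Ctsd measured 3892, 5640 and 5632 CPM in sham and 2786, 3721 and 3767 CPM in OVX. The groups did not overlap, by a narrow margin set by sham replicate 1. The log2 fold change of Ctsd was -0.48 (SE 0.23, adjusted p = 0.196), or -0.73 without sham replicate 1, which leaves 1 sham sample. The cysteine proteases Ctsb and Ctsl, the legumain gene Lgmn and the dipeptidyl peptidase gene Ctsc had log2 fold changes between -0.37 and -0.08. The class median was -0.23.

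All 9 glycosidases had fitted values below 0 (8 without sham replicate 1), with a median of -0.50, and Gaa and Neu1 fell. Gaa, which degrades glycogen in lysosomes, measured 168.3, 198.8 and 206.3 CPM in sham and 85.8, 118.8 and 112.3 CPM in OVX. Neu1, which removes terminal sialic acids, measured 95.6, 111.1 and 100.6 CPM in sham and 54.1, 61.9 and 61.5 CPM in OVX. For both genes every OVX library was below every sham library. Log2 fold changes were -0.82 (SE 0.20, adjusted p = 0.0315) for Gaa and -0.77 (SE 0.17, adjusted p = 0.0229) for Neu1. Neither passed once GC and length trends were removed, when the values were -0.37 (adjusted p = 0.158) and -0.49 (adjusted p = 0.0649), nor when any 1 of the OVX libraries was left out, when the highest adjusted p was 0.0976 for Gaa and 0.107 for Neu1. Hexa, the alpha subunit of beta-hexosaminidase, and Gla, alpha-galactosidase A, stood next, at -0.71 (SE 0.21, adjusted p = 0.0585) and -0.58 (SE 0.18, adjusted p = 0.0622) in edgeR. Both passed in DESeq2, with adjusted p of 0.0173 and 0.0234, and in 6 and 5 of 14 alternatives. With GC and length trends removed Hexa was -0.34 (adjusted p = 0.276). Manba had the fold change nearest to 0 in the class and measured 31.8, 14.8 and 19.1 CPM in sham and 31.1, 21.9 and 19.1 CPM in OVX. Its groups overlapped and its log2 fold change was -0.03 (SE 0.30, adjusted p = 0.956).

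Of the 3 sulfatases and 5 lipid genes, 0 passed in edgeR and 0 in DESeq2, and 2 had an unadjusted p under 0.05 in edgeR, 1 in each class. Arsa, which desulfates sulfatides, had the lowest fold change of the sulfatases and measured 49.8, 59.3 and 59.5 CPM in sham and 35.8, 42.4 and 43.1 CPM in OVX. Arsb, which desulfates dermatan and chondroitin sulfate, had the highest fold change and measured 33.1, 23.2 and 19.3 CPM in sham and 30.1, 31.5 and 28.5 CPM in OVX. Arsa did not overlap between groups and Arsb did. Their log2 fold changes were -0.44 (SE 0.19, adjusted p = 0.150) and 0.15 (SE 0.22, adjusted p = 0.704). Among the lipid genes, the acid sphingomyelinase Smpd1 had the lowest fold change, with 55.4, 73.3 and 79.2 CPM in sham and 45.9, 49.0 and 50.2 CPM in OVX. The acid ceramidase Asah1 had the highest, with 219.7, 191.0 and 173.3 CPM in sham and 241.2, 193.4 and 190.5 CPM in OVX. Fitted log2 fold changes were -0.46 (SE 0.20, adjusted p = 0.157) for Smpd1 and 0.05 (SE 0.20, adjusted p = 0.892) for Asah1. Psap stood out for the spread within sham, with 3599 CPM in replicate 1 and 1675 and 1649 CPM in replicates 2 and 3, while OVX held 2002, 2511 and 1971 CPM in between. Its log2 fold change was -0.29 (SE 0.30, adjusted p = 0.570), and 0.37 without sham replicate 1.

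None of the 6 membrane proteins passed in edgeR or DESeq2 (0 at an unadjusted p of 0.05 in edgeR), and their median was 0.01. Lamp2, a lysosomal membrane glycoprotein needed for chaperone-mediated autophagy, had the highest fold change of the class and measured 445.9, 305.4 and 302.0 CPM in sham and 609.8, 496.6 and 406.6 CPM in OVX. Lamp1, its close relative, had the lowest and measured 490.5, 233.6 and 231.3 CPM in sham and 333.3, 278.6 and 216.5 CPM in OVX. In both genes sham replicate 1 stood above the other sham libraries, and the groups overlapped. The log2 fold change was 0.42 (SE 0.24, adjusted p = 0.279) for Lamp2, turning to -0.47 (adjusted p = 0.155) with GC and length trends removed, and -0.39 (SE 0.31, adjusted p = 0.435) for Lamp1, turning to 0.24 without sham replicate 1. Cd68, the macrosialin of macrophage lysosomes, measured 402.5, 316.8 and 314.3 CPM in sham and 367.7, 387.9 and 372.1 CPM in OVX. The OVX libraries lay inside the sham range, and the log2 fold change of Cd68 was 0.06 (SE 0.19, adjusted p = 0.859). Gpnmb, a glycoprotein of macrophage lysosomes and melanosomes, had 0.21 (SE 0.21, adjusted p = 0.552).

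Progranulin (Grn), which is cut in lysosomes into granulins, had the largest standard error of its log2 fold change in the set. Grn measured 814.8, 2017 and 2060 CPM in sham and 464.7, 735.8 and 1034.5 CPM in OVX. Sham replicate 1 lay within the OVX range and sham replicates 2 and 3 above it, so the groups overlapped. Its log2 fold change of -0.95 (SE 0.45, adjusted p = 0.214) did not pass, and it was -1.46 without sham replicate 1, which leaves 1 sham sample.

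Both transcription factors were lower in OVX. Tfe3 (ENSMUSG00000000134, GRCm38 chromosome X, 7762560 to 7775202, plus strand) measured 134.6, 152.3 and 155.7 CPM in sham and 61.6, 81.7 and 80.9 CPM in OVX. Tfeb (ENSMUSG00000023990, GRCm38 chromosome 17, 47737030 to 47792419, plus strand) measured 16.3, 30.9 and 32.8 CPM in sham and 9.74, 15.7 and 13.6 CPM in OVX. Neither overlapped between the groups, although for Tfeb the margin between sham replicate 1 and OVX replicate 2 was narrow. Tfe3 fell, with a log2 fold change of -0.96 (SE 0.20, adjusted p = 0.0161), which held with GC and length trends removed at -0.79 (adjusted p = 0.0179). Without OVX replicate 1 or 2 the adjusted p of Tfe3 was 0.0503 or 0.0728. Tfeb did not pass in edgeR, at -0.90 (SE 0.31, adjusted p = 0.0901), and was lower in OVX in all 14 alternatives, in 6 of which it passed. Among these were DESeq2 (adjusted p = 0.0454) and the fit with no filter on low counts (adjusted p = 0.00366). Another was the fit without sham replicate 1, at -1.30, which leaves 1 sham sample. With GC and length trends removed, Tfeb stood at -0.39 (adjusted p = 0.332).

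**Figure D2:**
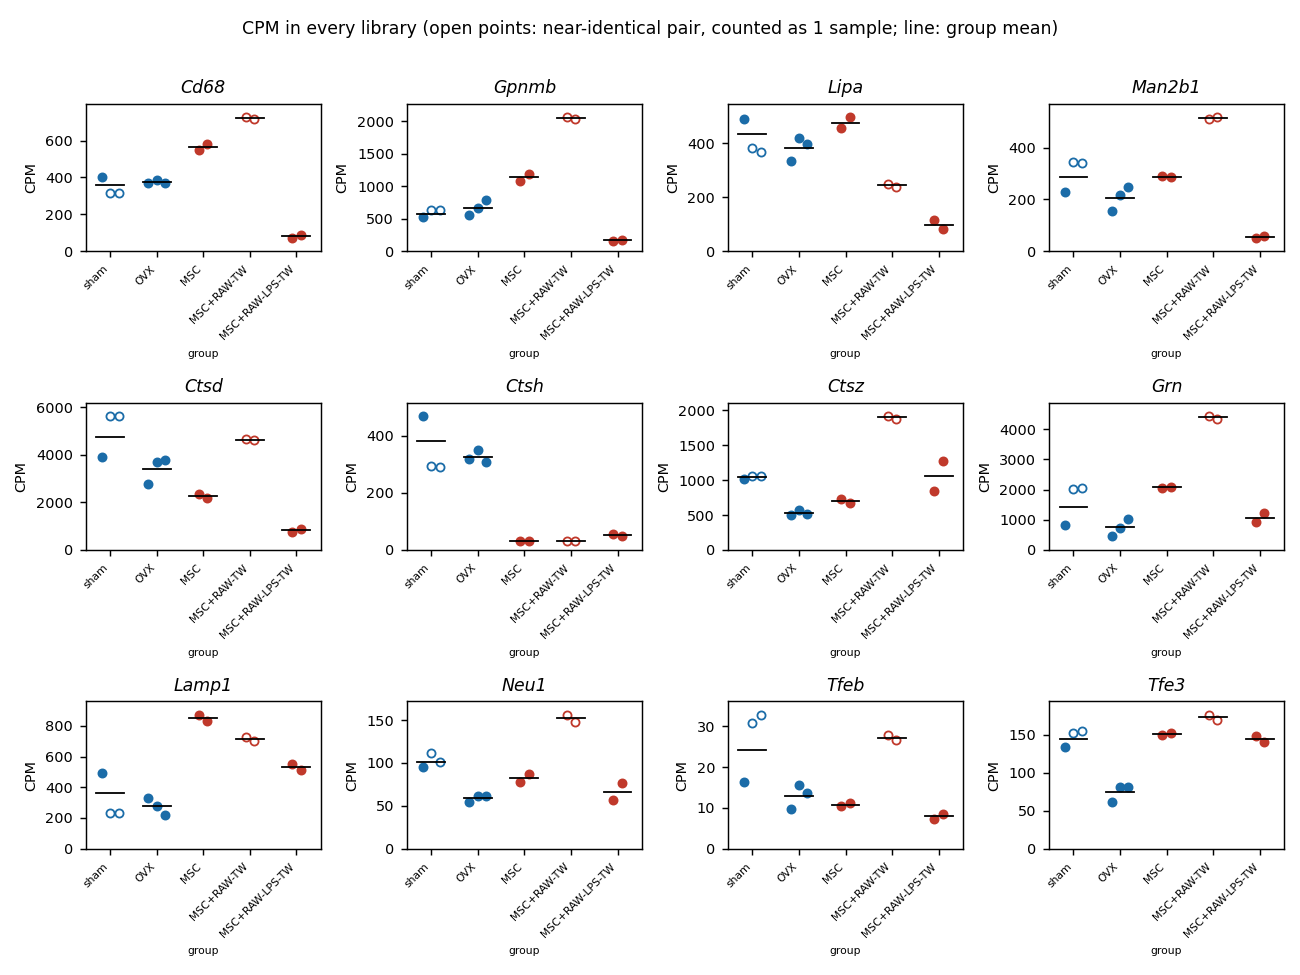
CPM of 12 lysosomal genes in every library, by group; open points are the near-identical pairs of libraries counted as 1 sample and lines are group means. In BMMs the OVX libraries of Ctsz (502.2 to 573.6) and Tfe3 (61.6 to 81.7) all lie below the sham libraries, and in MSCs the MSC+RAW-LPS-TW libraries of Cd68 (71.9 and 87.9) and Gpnmb (154.2 and 177.7) lie far below the other groups.

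The differences between OVX and sham moved with the GC content of the genes. Across the 37 genes the Spearman correlation of GC content with the log2 fold change was -0.60, and 0.38 once trends with GC content and length had been removed in each library, a description over genes that share libraries and base composition. Over the genes kept with a known GC content, each library's deviation from the gene mean correlated with GC content at -0.573, -0.393 and -0.317 in OVX and 0.204, 0.472 and 0.481 in sham. The 37 genes had a median GC content of 52.1%, against 49.3% over the genes kept. With the trends removed the median log2 fold change of the 37 was -0.19, and 3 passed, all lower: Tfe3, Gla (-0.78, adjusted p = 0.0148) and Ctsc (-0.83, adjusted p = 0.0243). Tfe3 passed in both fits. The part of base composition in the differences was not tested further.

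**Figure D3:**
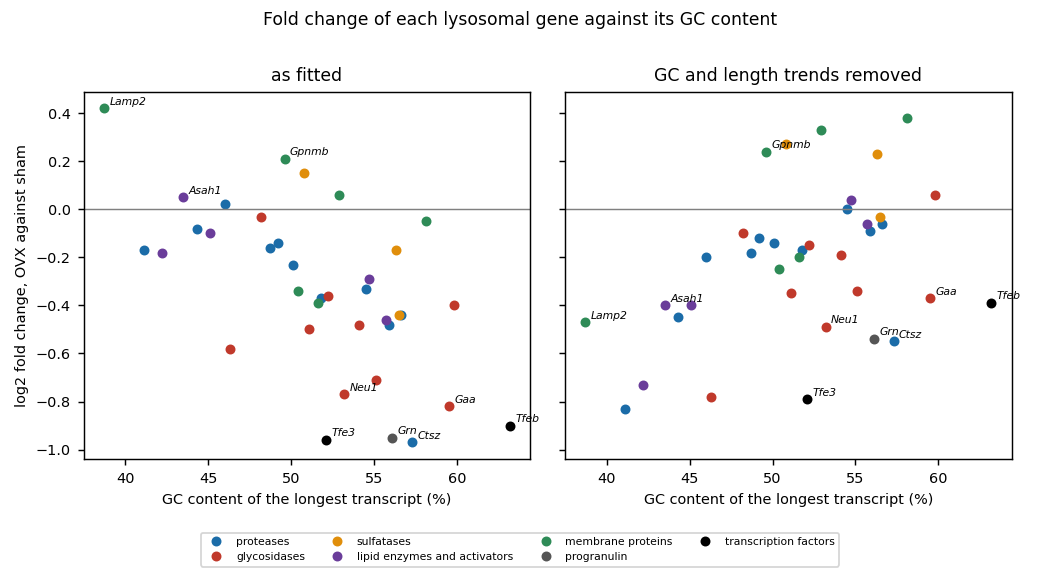
Log2 fold change of each of the 37 lysosomal genes, OVX against sham, against the GC content of its longest transcript in percent, as fitted (left) and with GC and length trends removed (right), colored by class. The relation on the left (Spearman -0.60) has the opposite sign on the right (0.38), where Tfe3 stays at -0.79 and Lamp2 moves from 0.42 to -0.47.

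Of 80 other lysosome genes listed by role, 79 were tested, 17 fell (21.5%, against 6.19% of all genes) and 2 rose (2.53%, against 7.66%) in OVX, with a median log2 fold change of -0.41. The roles are given in turn, and each count is to be read against the same shares of all genes. Among 23 other hydrolases and cofactors 5 fell and 0 rose, in edgeR, at an unadjusted p of 0.05 and in DESeq2 alike for the rises. The 2 called at 2-fold were Plbd2, a lysosomal hydrolase of the phospholipase B family, at -1.22 (SE 0.18, adjusted p = 0.00591), and Acp5, the tartrate-resistant acid phosphatase of osteoclasts, at -1.22 (SE 0.21, adjusted p = 0.00950). Of the 14 other membrane proteins tested 5 fell, and Slc11a1, the metal transporter of macrophage phagosomes, was called at 2-fold with -1.03 (SE 0.18, adjusted p = 0.00867). Of 17 V-ATPase subunits and accessory proteins 4 fell and 1 rose, with Atp6v0d1, a subunit of the membrane sector, at -1.03 (SE 0.23, adjusted p = 0.0209). Its homolog Atp6v0d2, used in osteoclasts and macrophages, rose by 0.86 (SE 0.20, adjusted p = 0.0266). Among 15 MiT-TFE factors and nutrient-sensing genes 2 fell and Fnip1, a partner of folliculin in the pathway that controls Tfeb and Tfe3, rose by 1.28 (SE 0.21, adjusted p = 0.00818). Of 7 sorting genes 1 fell, and 0 of 3 cystatins, which inhibit cathepsins, passed in edgeR or DESeq2 (1 at an unadjusted p of 0.05).

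Markers of cell types differed between the same BMM libraries. Of 12 macrophage markers 5 fell and 1, Cx3cr1, rose, and their summed level was 44094 to 47818 CPM in OVX and 60237 to 64453 CPM in sham. Lyz2, at 36091 to 40414 CPM in OVX and 48286 to 51842 CPM in sham, made up most of the sum. It did not pass (-0.42, SE 0.18, edgeR adjusted p = 0.152). None of the 12 macrophage markers was without counts in either group. The 7 osteoclast markers, of which Acp5, Ctsk and Atp6v0d2 are also among the other lysosome genes, summed to 334.1 to 343.9 CPM in OVX and 650.7 to 780.2 CPM in sham, and of 6 tested 4 fell, all by at least 2-fold, and 1, Atp6v0d2, rose. Of 12 stromal markers 1 rose, and they summed to 8251 to 9199 CPM in OVX and 7392 to 8051 CPM in sham. The 8 neutrophil markers summed to 1197 to 1329 CPM in OVX and 811.2 to 942.7 CPM in sham, and 1, S100a9, rose. Of 4 B cell markers 2 fell, both by at least 2-fold, with sums of 8.22 to 9.23 CPM in OVX and 19.2 to 22.3 CPM in sham. The part of these shifts in the fold changes of the lysosomal genes was not tested.

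The second experiment asked how cells labelled MSC differ when macrophages, resting or LPS-stimulated, are on the other side of the membrane. The 37 genes took a far smaller share of all counts in MSC+RAW-LPS-TW than in any other group. They held 2.34% and 2.42% of the counts in the MSC libraries, 2.67% and 2.66% in the MSC+RAW-TW pair and 0.920% and 1.03% in the MSC+RAW-LPS-TW libraries. In BMMs the share was 2.01% to 2.23% over all 6 libraries, with no gap between OVX and sham. The proteases alone accounted for 1.15% and 1.21% in MSC and for 0.495% and 0.580% in MSC+RAW-LPS-TW.

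**Figure D4:**
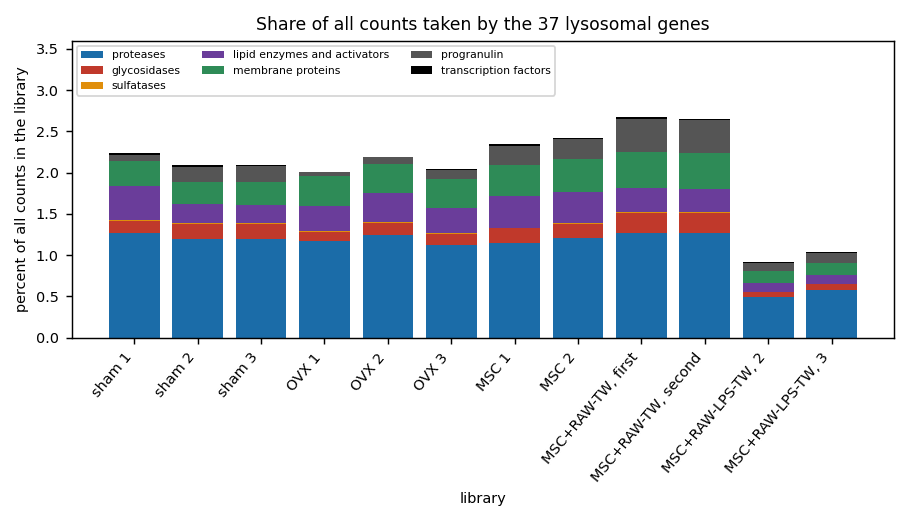
Share of all counts in each library, in percent, taken by the 37 lysosomal genes, stacked by class. MSC+RAW-LPS-TW libraries stand at 0.920 and 1.03 percent and all other libraries between 2.01 and 2.67 percent.

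Gene by gene, 23 of the 37 fell in MSC+RAW-LPS-TW against MSC and 2 rose, Ctsh and Ctsz. Of the 23, 15 were at least 2-fold lower, with Cd68 and Gpnmb lowest at about 7-fold. The median log2 fold change was -0.72, against -0.01 over the 20499 genes tested. In edgeR 67.6% of the 37 passed, against 20.8% of all genes, and 62.2% passed in the lower direction, against 9.79%. In the higher direction 5.41% passed, against 11.0%. At a fold of at least 2 on top of that, 40.5% of the 37 were called lower, against 5.07% of all genes, and 0 were called higher by edgeR, by DESeq2 or at that fold with an unadjusted p, against 5.82%. CPM ranges did not overlap for 31 of the 37, where the background was 57.6% (29.0% lower) with 2 libraries a group. Removing GC and length trends left the median at -0.73, and across the 37 genes GC content and log2 fold change had a Spearman correlation of 0.08.

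Membrane proteins held both the largest falls and genes with hardly any difference. Cd68 (ENSMUSG00000018774, GRCm38 chromosome 11, 69664213 to 69666153, minus strand) measured 550.0 and 580.7 CPM in MSC, 726.9 and 716.1 CPM in the MSC+RAW-TW pair, and 71.9 and 87.9 CPM in MSC+RAW-LPS-TW. Gpnmb (ENSMUSG00000029816, GRCm38 chromosome 6, 49036546 to 49070929, plus strand) measured 1081 and 1195 CPM in MSC, 2065 and 2034 CPM in MSC+RAW-TW, and 154.2 and 177.7 CPM in MSC+RAW-LPS-TW. In both genes every MSC+RAW-LPS-TW library was far below every other library. The log2 fold change against MSC was -2.82 (SE 0.17, adjusted p = 6.17e-09) for Cd68 and -2.78 (SE 0.18, adjusted p = 1.12e-08) for Gpnmb. Lamp1 measured 873.1 and 833.1 CPM in MSC, 727.6 and 701.0 CPM in MSC+RAW-TW, and 552.0 and 511.1 CPM in MSC+RAW-LPS-TW, and fell by 0.68 on the log2 scale (SE 0.16, adjusted p = 0.00482). The calcium channel Mcoln1 fell by 0.55 (SE 0.15, adjusted p = 0.0172). Without MSC replicate 1 or 2, which leaves 1 MSC sample, the log2 fold change was -0.65 or -0.71 for Lamp1. For Mcoln1 it was -0.55 or -0.56. Lamp2, at -0.15 (SE 0.17, adjusted p = 0.616), and the tetraspanin Cd63, at -0.19 (SE 0.17, adjusted p = 0.504), did not pass.

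Among the 11 proteases 6 fell, 2 rose and 3 did not pass. Ctsb, a cysteine protease, measured 3814 and 3991 CPM in MSC, 4143 and 4114 CPM in MSC+RAW-TW, and 1200 and 1343 CPM in MSC+RAW-LPS-TW. Lgmn, the asparaginyl endopeptidase that matures other cathepsins, measured 730.2 and 762.5 CPM in MSC, 846.5 and 833.2 CPM in MSC+RAW-TW, and 236.8 and 253.1 CPM in MSC+RAW-LPS-TW. Both were about 3-fold lower with LPS-stimulated cells than without co-culture, at -1.62 (SE 0.18, adjusted p = 6.01e-06) for Ctsb and -1.61 (SE 0.16, adjusted p = 1.55e-06) for Lgmn. Exons of Ctsb share 774 bases with Fdft1 on the other strand, and because the libraries came from a directional kit but the strand setting of the counting is not stated, some of its counts are uncertain. Ctsd measured 2370 and 2187 CPM in MSC, 4654 and 4641 CPM in MSC+RAW-TW, and 740.3 and 895.3 CPM in MSC+RAW-LPS-TW. The 3 groups kept apart, with MSC in the middle, and Ctsd fell by 1.48 against MSC (SE 0.18, adjusted p = 1.68e-05). Ctsa, the protective protein that holds Neu1 and beta-galactosidase in a complex, measured 462.1 and 423.9 CPM in MSC, 519.7 and 499.3 CPM in MSC+RAW-TW, and 209.4 and 197.7 CPM in MSC+RAW-LPS-TW. Tpp1, a tripeptidyl peptidase, measured 111.7 and 113.2 CPM in MSC, 57.8 and 55.7 CPM in MSC+RAW-TW, and 62.1 and 44.6 CPM in MSC+RAW-LPS-TW. Tpp1 was thus low in both co-cultures, where Ctsa was low in the LPS-stimulated one. Their log2 fold changes against MSC were -1.12 (SE 0.15, adjusted p = 4.53e-05) for Ctsa and -1.07 (SE 0.17, adjusted p = 0.000176) for Tpp1. Exons of Ctsa share 495 bases with Pltp and 324 with Neurl2 on the other strand.

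Ctsh and Ctsz went the other way. Ctsh, an aminopeptidase, measured 29.9 and 31.0 CPM in MSC, 31.1 and 30.1 CPM in MSC+RAW-TW, and 54.0 and 50.2 CPM in MSC+RAW-LPS-TW. Its level rose by 0.77 on the log2 scale (SE 0.15, adjusted p = 0.00149) and passed in all 14 alternatives. Ctsz measured 723.4 and 666.2 CPM in MSC, 1920 and 1883 CPM in MSC+RAW-TW, and 837.9 and 1272 CPM in MSC+RAW-LPS-TW. The MSC+RAW-LPS-TW libraries of Ctsz were wide apart, and the rise of 0.60 (SE 0.19, adjusted p = 0.0380) passed in 9 of 14 alternatives. Without the MSC+RAW-LPS-TW library named 3 it was 0.27, and without MSC replicate 1 or 2 it was 0.66 or 0.55. Each of these fits leaves 1 sample in the group concerned. Ctsl, at 0.47 (SE 0.18, adjusted p = 0.0814), did not pass in edgeR. It passed in 4 of 14 alternatives, among them DESeq2 (adjusted p = 0.0383). Another of the 4 left out the MSC+RAW-LPS-TW library named 2, with a log2 fold change of 0.66. Without the library named 3 it was 0.23, and both fits leave 1 sample in that group. Ctsc, at -0.11 (SE 0.15, adjusted p = 0.684), and Ctsf, at -0.52 (SE 0.20, adjusted p = 0.0827), did not pass. Ctss fell by 0.72 (SE 0.19, adjusted p = 0.0136), and its log2 fold change was -0.44 without MSC replicate 2, which leaves 1 MSC sample.

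Of the 9 glycosidases 7 fell, and Gaa and Neu1 did not pass. Man2b1, the lysosomal alpha-mannosidase (ENSMUSG00000005142, GRCm38 chromosome 8, 85083270 to 85098282, plus strand), measured 290.0 and 285.3 CPM in MSC, 511.4 and 519.0 CPM in MSC+RAW-TW, and 51.6 and 58.6 CPM in MSC+RAW-LPS-TW. Gla measured 80.2 and 93.8 CPM in MSC, 81.7 and 84.1 CPM in MSC+RAW-TW, and 21.8 and 21.0 CPM in MSC+RAW-LPS-TW. The log2 fold change against MSC was -2.38 (SE 0.15, adjusted p = 1.53e-08) for Man2b1 and -2.02 (SE 0.16, adjusted p = 1.09e-07) for Gla. Man2b1 was higher in MSC+RAW-TW than in MSC, whereas Gla was level between them. Hexa measured 462.0 and 452.4 CPM in MSC, 844.4 and 831.7 CPM in MSC+RAW-TW, and 131.8 and 160.2 CPM in MSC+RAW-LPS-TW. Gusb, beta-glucuronidase, measured 387.1 and 348.4 CPM in MSC, 760.9 and 772.9 CPM in MSC+RAW-TW, and 151.8 and 206.4 CPM in MSC+RAW-LPS-TW. Both showed the same order of the groups as Man2b1, and against MSC Hexa fell by 1.65 (SE 0.16, adjusted p = 1.58e-06) and Gusb by 1.04 (SE 0.17, adjusted p = 0.000335). Manba measured 36.7 and 32.6 CPM in MSC, 23.4 and 27.2 CPM in MSC+RAW-TW, and 15.2 and 14.9 CPM in MSC+RAW-LPS-TW, and fell by 1.20 (SE 0.17, adjusted p = 7.28e-05). Naglu and Glb1, which degrade heparan sulfate and beta-galactosides, fell by 0.69 (SE 0.15, adjusted p = 0.00367) and 0.58 (SE 0.15, adjusted p = 0.0113). Without MSC replicate 1 or 2, which leaves 1 MSC sample, the log2 fold change of Glb1 was -0.61 or -0.54. Exons of Glb1 overlap Tmppe on the same strand, so some of its counts are uncertain. Gaa was level, at 96.3 and 91.9 CPM in MSC and 95.0 and 96.8 CPM in MSC+RAW-LPS-TW, with a log2 fold change of 0.03 (SE 0.14, adjusted p = 0.927).

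Among the sulfatases, Sgsh, which takes part in the breakdown of heparan sulfate, measured 30.0 and 30.1 CPM in MSC, 39.0 and 42.2 CPM in MSC+RAW-TW, and 8.16 and 6.80 CPM in MSC+RAW-LPS-TW. Sgsh fell 4.01-fold against MSC (SE 0.18 on the log2 scale, adjusted p = 7.37e-07). Arsb fell by 0.90 (SE 0.17, adjusted p = 0.00114), and Arsa did not pass, at -0.21 (SE 0.16, adjusted p = 0.406).

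Of the lipid genes, Lipa, Psap and the palmitoyl-protein thioesterase Ppt1 fell. Lipa, the acid lipase that frees cholesterol from its esters (ENSMUSG00000024781, GRCm38 chromosome 19, 34492318 to 34527474, minus strand), measured 456.1 and 496.6 CPM in MSC, 249.0 and 238.4 CPM in MSC+RAW-TW, and 116.4 and 80.3 CPM in MSC+RAW-LPS-TW. Psap measured 2630 and 2384 CPM in MSC, 2661 and 2613 CPM in MSC+RAW-TW, and 736.3 and 810.0 CPM in MSC+RAW-LPS-TW. Lipa stepped down from MSC through MSC+RAW-TW to MSC+RAW-LPS-TW, and Psap was level between MSC and MSC+RAW-TW. The log2 fold change against MSC was -2.28 (SE 0.18, adjusted p = 1.81e-07) for Lipa and -1.70 (SE 0.17, adjusted p = 2.70e-06) for Psap. Ppt1 fell by 0.76 (SE 0.16, adjusted p = 0.00248), and its log2 fold change was -0.64 without MSC replicate 2, which leaves 1 MSC sample. Exons of Ppt1 share 129 bases with the highly counted Cap1 on the other strand. Smpd1 and Asah1 did not pass, at -0.20 (SE 0.16, adjusted p = 0.434) and -0.40 (SE 0.21, adjusted p = 0.215). In Asah1 the MSC libraries were themselves apart, at 64.9 and 112.9 CPM.

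Grn measured 2047 and 2095 CPM in MSC, 4440 and 4345 CPM in MSC+RAW-TW, and 919.1 and 1215 CPM in MSC+RAW-LPS-TW. The MSC+RAW-LPS-TW libraries were the lowest, and Grn fell by 0.96 against MSC (SE 0.18, adjusted p = 0.00129). The transcription factors did not pass. Tfe3 measured 150.3 and 152.0 CPM in MSC, 176.5 and 169.7 CPM in MSC+RAW-TW, and 148.8 and 140.2 CPM in MSC+RAW-LPS-TW. Tfeb measured 10.5 and 11.1 CPM in MSC, 27.9 and 26.5 CPM in MSC+RAW-TW, and 7.32 and 8.55 CPM in MSC+RAW-LPS-TW. Ranges of MSC and MSC+RAW-LPS-TW did not overlap in either gene, and the log2 fold changes were -0.06 (SE 0.14, adjusted p = 0.817) for Tfe3 and -0.44 (SE 0.21, adjusted p = 0.154) for Tfeb, or -0.58 (adjusted p = 0.0462) for Tfeb with GC and length trends removed.

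**Figure D5:**
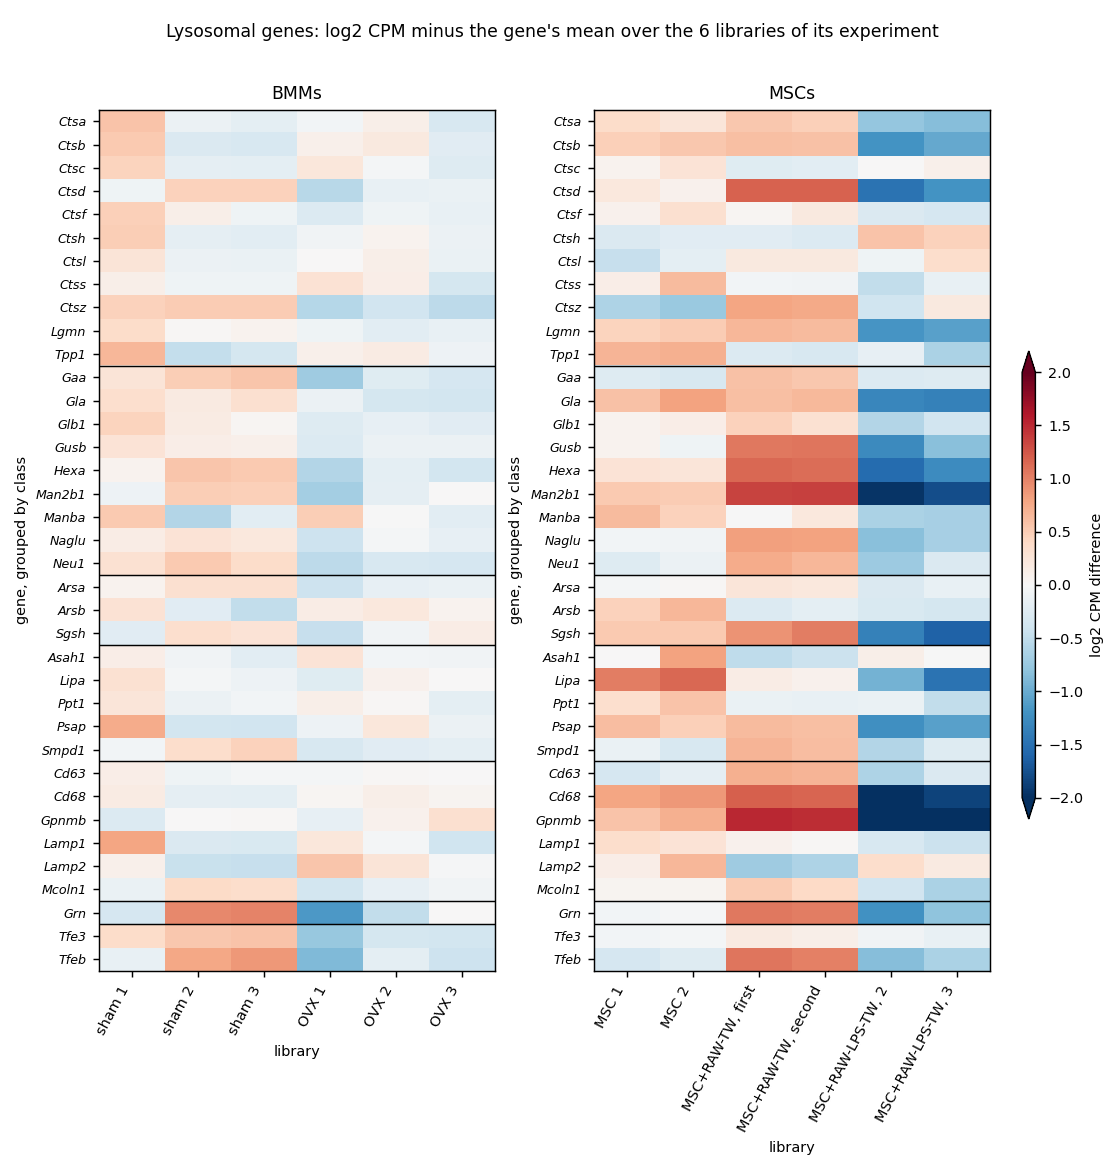
Log2 CPM of each of the 37 lysosomal genes in each library, minus the gene's mean over the 6 libraries of its experiment, with classes divided by lines; colors saturate at 2 and -2. In BMMs sham 1 differs from sham 2 and sham 3 in Grn, Psap and Tpp1, and in MSCs most genes are lowest in both MSC+RAW-LPS-TW libraries.

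With untreated RAW264.7 cells, the lysosomal genes differed in both directions, more of them higher than lower. In MSC+RAW-TW against MSC, 25 of the 37 were higher and 12 lower. Of all 20499 genes, 9127 were higher and 11284 lower. The median log2 difference of the 37 was 0.26, against -0.13 over all genes. Past 2-fold, with no test, 5 were higher (Ctsz 1.48, Tfeb 1.36, Grn 1.11, Gusb 1.09 and Ctsd 1.06 on the log2 scale), where 13.7% of all genes were past 2-fold in that direction. Lamp2 alone was past 2-fold lower, at -1.06, where the background was 24.0%, or 37.7% for either direction. Lamp2 measured 158.0 and 230.2 CPM in MSC and 88.3 and 94.7 CPM in MSC+RAW-TW, and its difference was -0.08 with GC and length trends removed. With those trends removed, Ctsl (1.06) and Ctsz (1.00) were the 2 past 2-fold. Fitted differences and GC content had a Spearman correlation of 0.73 across the 37 genes, and 0.26 with the trends removed.

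Set against untreated RAW264.7 cells, LPS-stimulated cells on the other side of the membrane left 19 of the 37 past 2-fold lower, with no test, and 0 past 2-fold higher, where the background was 19.4% lower, 28.2% higher and 47.6% in either direction. The median log2 difference was -1.10, against 0.14 over all genes. Gpnmb was 12.6-fold, Man2b1 9.52-fold and Cd68 9.20-fold lower. Hexa, Ctsd and Sgsh followed, at 5.85, 5.79 and 5.50-fold. Lamp2 had the highest difference, at 0.91 on the log2 scale, or -0.13 with GC and length trends removed. With those trends removed, 14 of the 37 were past 2-fold lower. Fitted differences and GC content had a Spearman correlation of -0.45 across the 37 genes, and -0.08 with the trends removed. This contrast and the MSC+RAW-LPS-TW against MSC contrast share the MSC+RAW-LPS-TW libraries.

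Other lysosome genes moved in both directions in MSC+RAW-LPS-TW against MSC. Of the 79 tested, 33 fell (41.8%, against 9.79% of all genes) and 7 rose (8.86%, against 11.0%), with a median log2 fold change of -0.33. These shares of all genes are also the background of the counts by role. Among the other hydrolases and cofactors 10 fell and 3 rose, and Acp5 rose most, by 2.25 (SE 0.16, adjusted p = 5.14e-08), from 23.1 and 22.8 CPM to 96.9 and 122.2 CPM. M6pr, a mannose 6-phosphate receptor that carries enzymes to lysosomes, rose by 1.09 (SE 0.16, adjusted p = 8.89e-05) and was the only other rise of at least 2-fold. Of the V-ATPase genes 7 of 17 fell and 0 rose, in edgeR, at an unadjusted p of 0.05 and in DESeq2 alike for the rises, and Atp6v0d2 fell by 2.51 (SE 0.23, adjusted p = 7.88e-07). Among the MiT-TFE factors and nutrient-sensing genes 6 of 15 fell, with 0 rises in edgeR or DESeq2 (1 at an unadjusted p of 0.05), and the Rag GTPase gene Rragd, at 2.47 and 3.70 CPM in MSC and 0.660 and 0.572 CPM in MSC+RAW-LPS-TW, fell by 2.31 (SE 0.48, adjusted p = 0.00235). Of the other membrane proteins 8 of 14 fell and 1 rose, and of the sorting genes 1 fell and 2 rose. Cystatin F (Cst7), which inhibits lysosomal cysteine proteases, fell by 2.12 (SE 0.28, adjusted p = 4.39e-05), and 1 other cystatin of 3 rose.

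Cell type markers also differed between these groups. The 12 macrophage markers summed to 27674 to 27862 CPM in MSC, 36715 to 37077 CPM in MSC+RAW-TW and 14177 to 14620 CPM in MSC+RAW-LPS-TW, and against MSC 7 of the 12 fell in MSC+RAW-LPS-TW and Adgre1 rose. Adgre1 measured 1536 and 1400 CPM in MSC+RAW-LPS-TW, and its log2 fold change against MSC was 1.42 (adjusted p = 1.02e-05), while Csf1r, the M-CSF receptor, fell by 0.56 (adjusted p = 0.0266). The 12 stromal markers summed to 2698 to 2849 CPM in MSC, 2069 to 2074 CPM in MSC+RAW-TW and 4061 to 4136 CPM in MSC+RAW-LPS-TW, where 6 rose and 1 fell against MSC. No macrophage or stromal marker was without counts in any of the 3 groups. Neutrophil markers summed to 11.7 to 16.4 CPM in MSC and 369.9 to 555.0 CPM in MSC+RAW-LPS-TW, with 4 of 8 at no count in MSC and 2 of 8 in MSC+RAW-LPS-TW. S100a8 (341.0 and 515.2 CPM) and Camp (28.7 and 39.6 CPM) made up nearly all of the latter sum, and the other 6 markers lay under 1 CPM. The 7 osteoclast markers summed to 107.8 to 110.6 CPM in MSC, 144.1 to 146.0 CPM in MSC+RAW-TW and 826.7 to 887.9 CPM in MSC+RAW-LPS-TW. Of the 5 tested against MSC, the gelatinase gene Mmp9 (4.24, adjusted p = 8.11e-11) and Acp5 rose and Atp6v0d2 fell, while Ctsk stood at -0.24 (adjusted p = 0.348) and Calcr, Ocstamp and Oscar lay under 1 CPM. The part of these shifts in the lysosomal differences was not tested.

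Fold changes of the 11 genes with TCACGTG in their promoter window and of the 23 without it are given side by side. In MSC+RAW-LPS-TW against MSC, 9 of the 11 fell, with a median log2 fold change of -0.69 over the 11, and 13 of the 23 fell, with a median of -0.76, where 9.79% of all genes fell. In OVX against sham the medians were -0.40 and -0.18, and 1 of 11 and 3 of 23 fell, where 6.19% of all genes did. No test was run on these groups of genes.

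The OVX and LPS comparisons share no library. Of the 37 genes, 27 had fitted values below 0 in both, 4 in OVX alone, 6 in MSC+RAW-LPS-TW alone, and 0 were above 0 in both. In OVX 31 of the 37 lay below 0 and in MSC+RAW-LPS-TW 33, so most would share this sign without any link between the comparisons. No such link was tested. Without sham replicate 1, 17 were below 0 in both. Only Ctsz passed in both, lower in OVX BMMs and higher in MSC+RAW-LPS-TW, and its rise was the weaker of these calls. Man2b1, Cd68, Gpnmb and Lipa, the largest falls with LPS-stimulated cells, had log2 fold changes of -0.48, 0.06, 0.21 and -0.18 in OVX against sham, and 0 of these 4 passed there in edgeR or had an unadjusted p under 0.05. Tfe3, which fell in OVX, stood at -0.06 in MSC+RAW-LPS-TW against MSC.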

How the data were processed

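RNA-seq was analysed for 6 BMM and 6 MSC libraries. The authors made directional libraries of poly(A) RNA, sequenced them as read pairs, trimmed with Trim Galore 0.6.7, aligned to GRCm38 with HISAT2 2.1.0 and counted genes with featureCounts 2.0.1. The strand setting of the counting is not given in the sources used here. Both deposited tables hold whole-number counts for each gene, not normalized by the authors, beside its exon length.

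Each table was fitted separately in R 4.3.3 with edgeR 4.0.16 (TMM factors, filterByExpr, robust quasi-likelihood test, Benjamini-Hochberg adjustment over all genes kept). A gene passed at an adjusted p of at most 0.05, and was called at 2-fold with a fold of at least 2 in addition. Each near-identical pair of libraries was summed, giving 5 samples per fit. Alternatives included DESeq2 1.42.0 and lowess removal of GC content and length trends. The test was tried on simulated data first. Depth was 17012923 to 45367105 counts per library, and SDs cover the spread between samples only.

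The 37 genes and the other lists were chosen with earlier results of these data known. Values were given in every library for genes called at 2-fold with LPS-stimulated cells, for the highest and lowest of each class in OVX against sham, and for Cd68, Lamp1, Tfeb and Tfe3. Ctsh, Ctsz, Gaa, Ctsd, Psap, Lamp2 and Asah1 were also described after their values were seen. Column names gave the group but not the replicate for both co-culture groups.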

Additional observations from a re-analysis of the deposited data

How the results depend on the processing

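The number of the 37 genes that passed in OVX against sham was 4, and it moved with the setting. It was 7 with DESeq2, 7 with no filter on low counts, 9 with every library a separate sample, 0 with a fold of at least 2 required as well, and 0 to 9 when 1 library was left out (0 without OVX replicate 2, 1 without OVX replicate 1, 2 without OVX replicate 3, 9 without sham replicate 1, where the lone sham sample is assumed to vary like the others). Both blocks that follow also kept every library separate, so their counts are to be read against the 9. A block for the series of library numbers, chosen after seeing the data, gave 7. Same-numbered BMM libraries correlated at 0.364, -0.012 and 0.312 in their deviations, of which 1 was near 0, and the numbers were not taken to pair the libraries. The replicate block gave 17, of which 16 lower and 1 higher. No paired analysis was possible by replicate number for the MSC groups because the numbers in the co-culture column names are not those of the labels. In MSC+RAW-LPS-TW against MSC 25 passed, 26 with every library separate, 27 (24 lower and 3 higher) with that and the block for library numbers, 15 with a fold of at least 2 required and 19 to 26 when 1 library was left out. In MSC+RAW-TW against MSC 6 were past 2-fold, 2 with GC and length trends removed and 5 to 7 when 1 library was left out, and between both co-cultures 19 were, 14 with those trends removed and 19 to 21 when 1 library was left out. The median log2 fold change ranged from -0.38 to -0.19 in OVX against sham and from -0.87 to -0.69 in MSC+RAW-LPS-TW against MSC over the alternatives. Fits without an MSC or MSC+RAW-LPS-TW library leave 1 sample in that group, which is likewise assumed to vary like the others. Such fits are among the 14 alternatives. The cause of these movements was not tested.

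Signs turned in OVX against sham, for 12 genes when sham replicate 1 was left out, where 0 of the genes that turned had passed in edgeR. With GC and length trends removed the log2 fold change was -0.20 for Ctss, 0.06 for Naglu, 0.23 for Sgsh, -0.40 for Asah1, 0.04 for Psap, -0.47 for Lamp2 and 0.38 for Cd63. With every library separate it was 0.01 for Ctsb, 0.03 for Tpp1 and 0.13 for Manba. With every library separate and the replicate block it was 0.06 for Ctsb, 0.00 for Ctsl, 0.12 for Tpp1, 0.17 for Manba and 0.01 for Psap, and with every library separate and the block for library numbers 0.02 for Ctsb, 0.06 for Tpp1 and 0.17 for Manba. When 1 library was left out, the ranges were -0.42 to 0.08 for Ctsa, -0.21 to 0.34 for Ctsb, -0.30 to 0.18 for Ctsc, -0.27 to 0.16 for Ctsh, -0.13 to 0.13 for Ctsl, -0.11 to 0.19 for Ctss, -0.21 to 0.47 for Tpp1, -0.26 to 0.47 for Manba, -0.07 to 0.20 for Asah1, -0.40 to 0.37 for Psap, -0.24 to 0.03 for Lipa, -0.17 to 0.06 for Ppt1, -0.55 to 0.24 for Lamp1 and -0.05 to 0.05 for Cd63. In MSC+RAW-LPS-TW against MSC, Gaa was -0.04 with GC and length trends removed and -0.00 to 0.06 when 1 library was left out, Asah1 -0.75 to 0.05 and Lamp2 -0.40 to 0.15.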
